A study of Mus musculus with 27 samples.

Results

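Spinal Cord cells are a cell type of mouse gastruloids that the study lists among the ectodermal types. Gastruloids are aggregates of embryonic stem cells that elongate and form cell types of the trunk. Spinal Cord cells were taken as the cells of Leiden cluster 7 in the deposited table of single gastruloid cells, which gave 344 of 4637 cells. The study names this cluster Spinal Cord, whereas the deposited table calls the same 344 cells Neurons, so the name rests on equal cell numbers. Its defining markers Sox1, Pax6, Sox2 and Irx3 were not analysed here, because the table used holds values per cell and no values per gene. The label was therefore not checked against expression, and "Spinal Cord" stands below for membership of cluster 7.

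All gastruloids came from the B6 line, mouse embryonic stem cells of the genotype 129S1/SvImJ / C57BL/6 kept in ESLIF medium (serum and leukaemia inhibitory factor). Condition 1 stayed in ESLIF only before aggregation. Condition 5 received 2i medium, which holds inhibitors of the kinases GSK3 and MEK, for 48 h followed by 48 h of ESLIF, and condition 6 received 24 h of 2i followed by 24 h of ESLIF. All gastruloids had a pulse of the GSK3 inhibitor chiron from 48 to 72 h and were collected at 120 h after aggregation. From each condition, 5 single gastruloids were dissociated, and live cells of each were sorted into 1 plate of 384 wells for CEL-seq2, so that gastruloid and plate cannot be told apart. The labels call the gastruloids of a condition biological replicates but do not say whether they came from separate cultures, and p-values below measure the spread between these gastruloids. Gastruloids are named by condition and letter, as 1A to 1E, 5A to 5E and 6A to 6E.

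In the embryo, the spinal cord and the paraxial mesoderm of the trunk both draw on neuromesodermal progenitors (NMPs) at the tail end of the axis. A progenitor that takes the neural route keeps the pluripotency and neural factor Sox2, gains the early neural factor Sox1, and later turns on Pax6 and Irx3, which pattern the dorsoventral axis of the neural tube. The mesodermal route leads through the presomitic mesoderm to the somites. Trunk neural progenitors are cycling epithelial cells, and neurons leave the cell cycle as they form. The NMP/Caudal Epiblast, Presomitic Mesoderm and Somite cells of the same gastruloids therefore served as the types for comparison.

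The table listed 261 to 348 cells per gastruloid, and the median total count per cell lay between 7109.5 and 12135.5 over the gastruloids. Spinal Cord cells had a median of 8416 counts (range 435 to 27738), 4132 genes and 5.13% mitochondrial reads. The authors give 500 reads as their minimum per cell, and 4 of the 344 Spinal Cord cells had fewer than 500 counts. Plates reuse the same cell barcodes by design, and 376 well numbers occurred on more than 1 plate.

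Spinal Cord cells were mostly found in gastruloids of condition 1, which contributed 315 of the 344 cells (91.6%). In condition 1, they made up 8.09% of the cells of 1A (25 of 309), 7.21% of 1B (22 of 305), 16.8% of 1C (50 of 298), 58.9% of 1D (178 of 302) and 12.7% of 1E (40 of 315). The 95% Wilson intervals of these shares reached from 4.81% at the lower bound of 1B to 64.3% at the upper bound of 1D, and like all intervals here they cover counting error only. Thus 1D stood far above the other 4 gastruloids of its condition, which spanned 7.21% to 16.8%.

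In condition 5, Spinal Cord cells made up 0.949% of 5A (3 of 316), 1.53% of 5C (4 of 261) and 1.01% of 5D (3 of 298). None were listed in 5B (0 of 348) and 5E (0 of 309), where the limit of 3 cells that a count of 0 allows is 0.862% and 0.971%, and the upper Wilson bounds are 1.09% and 1.23%, respectively. In condition 6, the shares were 0.314% in 6A (1 of 318), 0.676% in 6B (2 of 296), 1.25% in 6C (4 of 321), 1.90% in 6D (6 of 316) and 1.85% in 6E (6 of 325). Every gastruloid of condition 1 lay above every gastruloid of conditions 5 and 6, whose highest share was 1.90%.

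Over 5 gastruloids each, the share averaged 20.7% ± 21.7 (SD) for condition 1, 0.698% ± 0.676 for condition 5 and 1.20% ± 0.701 for condition 6. The difference was 20.05 percentage points between conditions 1 and 5 and 19.5 between conditions 1 and 6, each with p = 0.00794 by an exact rank-sum (Wilcoxon) test, two-sided, over gastruloids (0.0238 after correction for 3 pairs). This is the smallest p that 5 against 5 gastruloids allow. Conditions 5 and 6 differed by 0.50 points, with the higher mean in condition 6, which was within the spread between gastruloids (exact rank-sum p = 0.286, 0.857 after correction). Without 1D, the mean of condition 1 was 11.2% ± 4.43 (n = 4) and the difference between conditions 1 and 5 was 10.5 points. The exact rank-sum p was 0.0159 (0.0476 after correction), the smallest that 4 against 5 gastruloids allow. As every gastruloid of condition 1 lay above all of condition 5, this p could not have been larger.

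**Figure D1:**
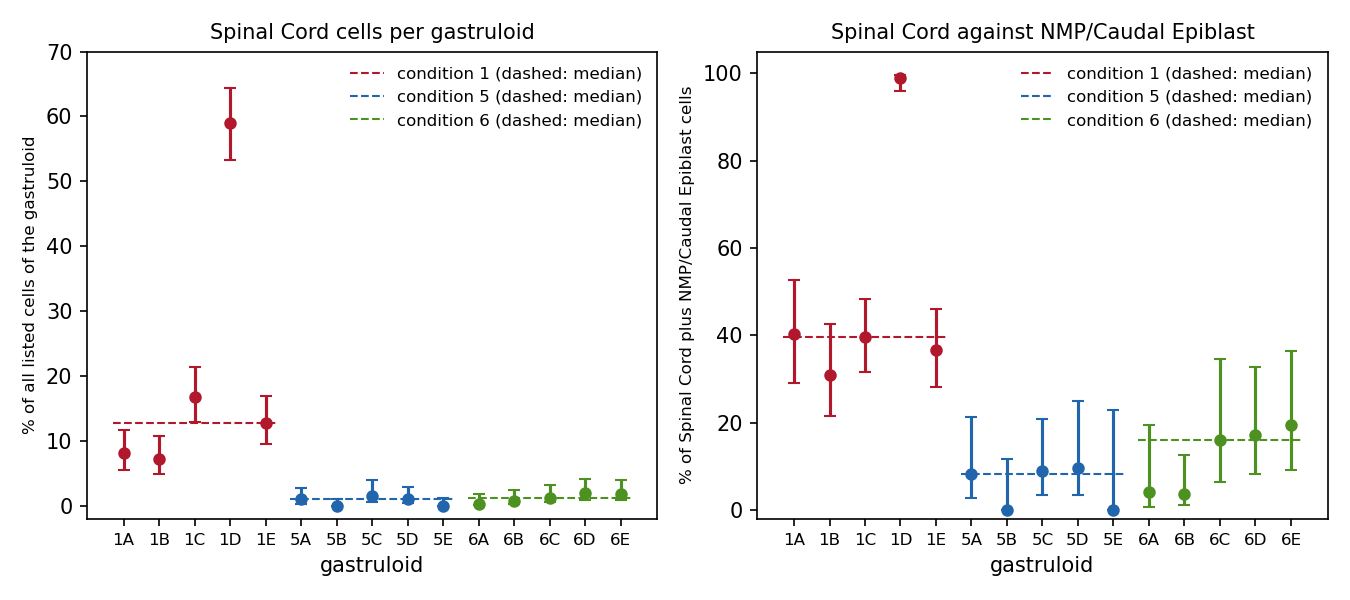
Left, Spinal Cord cells in percent of all listed cells for each of the 15 gastruloids, and right, Spinal Cord cells in percent of Spinal Cord plus NMP/Caudal Epiblast cells. Points are gastruloids coloured by condition, bars are 95% Wilson intervals, and dashed lines are medians. On the left, the 5 gastruloids of condition 1 lie at 7.21% to 58.9% and the other 10 at 0 to 1.90%.

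The SD of the share was 21.7 points in condition 1, where binomial counting at these cell numbers gives 2.31. This SD rested on 1D, and without it the SD was 4.43 points, where counting gives 1.799. In conditions 5 and 6 the SDs of 0.676 and 0.701 points were above the 0.462 and 0.615 that counting gives. The Wilson intervals of the gastruloids of conditions 5 and 6 overlapped, and differences among single gastruloids were not tested.

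Gastruloid 1D alone held 178 of the 344 Spinal Cord cells, and its remaining 124 cells also differed in makeup from those of 1A, 1B, 1C and 1E. Only 2 of them were NMP/Caudal Epiblast cells (1.61% of its non-Spinal Cord cells), whereas these progenitors made up 13.03% to 30.6% in the other 4. No Presomitic Mesoderm cell was listed in 1D, against 2.82% to 13.5% in the other 4. Differentiation Front cells, which lie between presomitic mesoderm and somites, made up 1.61% in 1D and 9.09% to 15.5% in the other 4. On the other side, PGC-like cells, which resemble primordial germ cells, made up 37.9% of the non-Spinal Cord cells of 1D and 2.12% to 12.3% of those of the other 4. Endoderm made up 15.3% against 2.02% to 8.10%, and Allantois 12.1% against 2.11% to 5.45%. These shares rise because the Spinal Cord cells were left out of the total. In percent of all cells, Endoderm in 1D was 6.29%, inside the 1.68% to 7.44% of the other 4. Allantois was 4.97% against 1.94% to 4.76%, and PGC-like 15.6% against 1.97% to 11.3%. With 1 such gastruloid, none of these differences was tested.

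The numbers of Spinal Cord cells were next set against those of NMP/Caudal Epiblast cells, the candidate progenitors carried in the same gastruloid. The mean share of NMP/Caudal Epiblast cells was 15.2% ± 9.66 (SD, n = 5) for condition 1, 9.68% ± 4.16 (n = 5) for condition 5 and 9.71% ± 4.49 (n = 5) for condition 6. Together, both types made up 36.0% ± 15.9 of the cells under condition 1, 10.4% ± 4.77 under condition 5 and 10.9% ± 4.32 under condition 6.

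Of these cells together, Spinal Cord cells made up 40.3% in 1A, 31.0% in 1B, 39.7% in 1C, 98.9% in 1D and 36.7% in 1E. In condition 5 the values were 8.11% in 5A, 8.89% in 5C and 9.68% in 5D, and 0 in 5B (0 of 29 cells, where the limit of 3 cells is 10.3%) and in 5E (0 of 13, with a limit of 23.1%). In condition 6 they were 4.00% in 6A, 3.70% in 6B, 16.0% in 6C, 17.1% in 6D and 19.4% in 6E. Apart from 1D, the 4 gastruloids of condition 1 were close to each other at 36.9% ± 4.26, and all 5 lay above the highest value of conditions 5 and 6.

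On average this balance was 49.3% ± 28.0 for condition 1, 5.33% ± 4.90 for condition 5 and 12.04% ± 7.57 for condition 6 (SD, n = 5 per condition). Condition 1 exceeded condition 5 by 44.0 points and condition 6 by 37.3 points (exact two-sided rank-sum p = 0.00794 each, 0.0238 after correction for 3 pairs). Mesoderm cells do not enter this ratio, so the larger proportion of Spinal Cord cells in condition 1 was present relative to the NMP/Caudal Epiblast cells too. Conditions 5 and 6 differed by 6.71 points, with the higher mean in condition 6 (exact p = 0.206, 0.619 after correction).

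On the deposited UMAP, Spinal Cord cells formed a compact field that bordered on the NMP/Caudal Epiblast cells. Of the 15 nearest cells of every Spinal Cord cell, 94.2% were Spinal Cord cells themselves (4862 of 5160), 3.59% were NMP/Caudal Epiblast, 1.84% Somite and 0.349% Presomitic Mesoderm. Of these neighbours, 2670 belonged to cells of 1D, and without 1D the shares were 88.1% Spinal Cord, 7.35% NMP/Caudal Epiblast, 3.82% Somite and 0.723% Presomitic Mesoderm. None of the 5160 neighbours belonged to the other 7 types. In a random mixture of all cells, 7.42% would be Spinal Cord, 11.4% NMP/Caudal Epiblast and 23.96% Somite. UMAP distances are a display of the same expression values that gave the clusters, and neighbours were therefore described without a test.

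**Figure D2:**
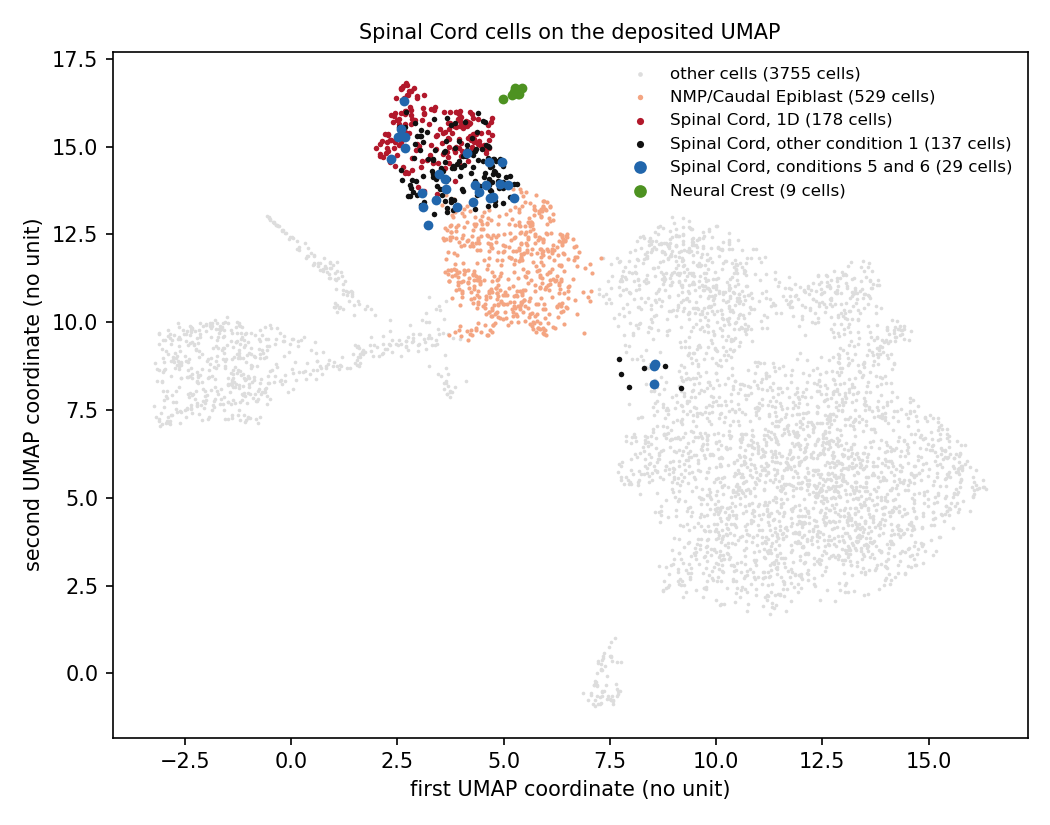
Deposited UMAP coordinates of all 4637 gastruloid cells, without unit, with the Spinal Cord cells of 1D, of the other gastruloids of condition 1 and of conditions 5 and 6 in separate colours. The 178 cells of 1D lie at the far side of the field from the 529 NMP/Caudal Epiblast cells, and 9 Spinal Cord cells lie apart, next to mesoderm cells.

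Inside this field, the gastruloids took different places. All 15 neighbours were Spinal Cord cells for 293 of the 344 cells. This held for 177 of 178 cells in 1D, 18 of 22 in 1B, 40 of 50 in 1C, 32 of 40 in 1E and 11 of 25 in 1A. Cells with at least 1 NMP/Caudal Epiblast neighbour numbered 1 of 178 in 1D and 30 of 137 (21.9%) in the other gastruloids of condition 1, with 13 of 25 in 1A. Thus the gastruloid with 2 listed NMP/Caudal Epiblast cells also had 1 Spinal Cord cell next to any of that type.

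For 1D, 73.7% of the neighbours of its Spinal Cord cells, of any type, came from 1D itself, where a random mixture of the Spinal Cord cells alone would give 51.6%. The other gastruloids of condition 1 also had more neighbours of their own than a mixture gives, with 18.1% against 6.997% in 1A, 13.6% against 6.12% in 1B, 19.3% against 14.3% in 1C and 26.0% against 11.4% in 1E. The counted neighbours include other types, whereas the mixture holds Spinal Cord cells only, so these pairs of values rest on unlike sets. Spinal Cord cells made up 82.9% of the neighbours in 1A and 90.7% in each of 1C and 1E. Each gastruloid was 1 plate, so the part of the plate in these values was not tested.

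The 29 Spinal Cord cells of conditions 5 and 6 were spread over the field and in part outside it. Of their neighbours, 80.0% were Spinal Cord and 11.3% NMP/Caudal Epiblast cells, compared with 89.8% and 6.52% for condition 1 without 1D. All neighbours were Spinal Cord for 15 of the 29 cells, and a majority were NMP/Caudal Epiblast for 4 and mesoderm cells for 3. The gastruloids did not share 1 pattern, since Spinal Cord cells made up 98.9% of the neighbours in 6D and 96.7% in 6E, above 1A, 1B, 1C and 1E, and 6.67% for the single cell of 6A. These 29 cells came from 8 gastruloids with 1 to 6 cells each, and no difference was tested.

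**Figure D3:**
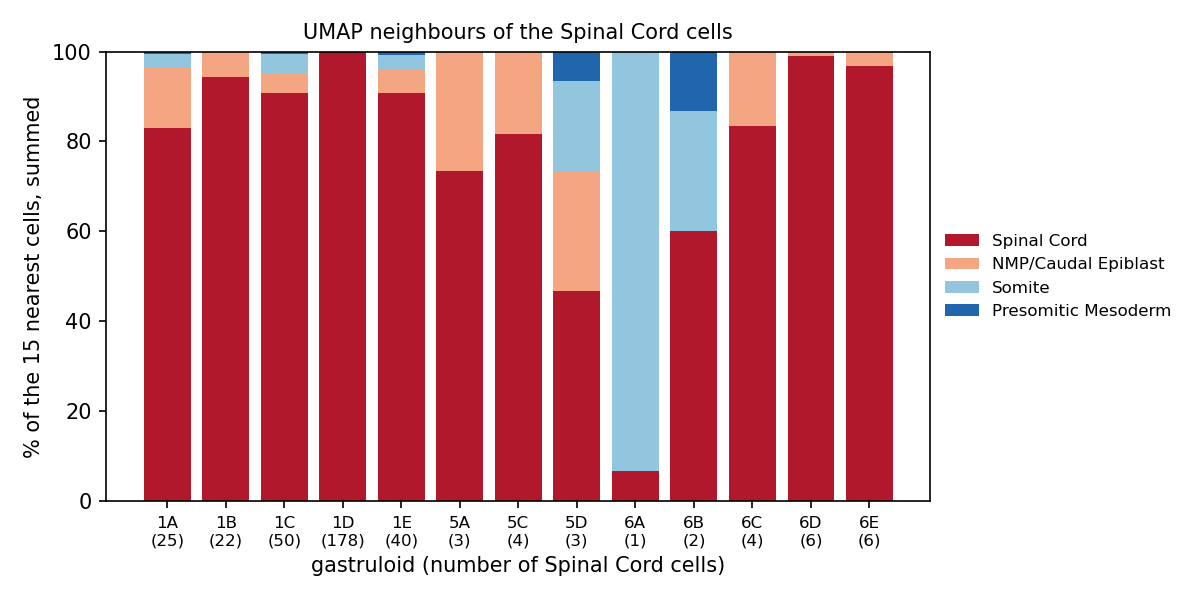
Makeup of the 15 nearest cells on the UMAP, summed over the Spinal Cord cells of each of the 13 gastruloids that held any (number of cells in brackets). Spinal Cord cells make up 99.9% of the neighbours in 1D and 82.9% in 1A, and NMP/Caudal Epiblast cells make up 0.0749% and 13.6%.

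A small set of Spinal Cord cells had mostly cells of other types as neighbours. For 19 of the 344 cells, fewer than 8 of the 15 neighbours were Spinal Cord, and these fell into 2 kinds. In 10 cells from 8 gastruloids, most neighbours were NMP/Caudal Epiblast cells, and these cells had a median of 9321.5 counts and 5.77% mitochondrial reads. In the other 9 cells, from 6 gastruloids, most neighbours were mesoderm cells. These had a median of 729 counts and 8.37% mitochondrial reads, 5 of the 9 had under 1000 counts, and none was called in S phase. In condition 1, 6 cells were of each kind, and in conditions 5 and 6 there were 4 of the first and 3 of the second. Leaving out all 19 cells gave a difference in share of 19.5 points between conditions 1 and 5 and 19.0 between conditions 1 and 6. The corrected p of 0.0238 in the exact rank-sum test was the same. It is the smallest possible, and all gastruloids of condition 1 already lay above the others. The neighbours also come from the values that gave the clusters, so this p adds no support.

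The table also holds a second partition of the cells into 15 classes, which the sources used here do not describe. It placed 293 of the Spinal Cord cells (85.2%) in its class 7, in which they made up 95.8% of 306 cells. A further 43 cells (12.5%) fell into its class 0, where 517 of 579 cells were NMP/Caudal Epiblast, while 7 cells fell into class 10, which was mostly Differentiation Front and Early Somite, and 1 into class 1, which was mostly Presomitic Mesoderm. The 43 cells were therefore counted as spinal cord in one partition and with the NMPs in the other.

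These 43 cells were unevenly spread over the gastruloids. They made up 11 of 25 Spinal Cord cells in 1A, 8 of 22 in 1B, 13 of 50 in 1C, 3 of 40 in 1E and 1 of 178 in 1D, and 7 of 29 in conditions 5 and 6. Their neighbours were 83.4% Spinal Cord and 16.6% NMP/Caudal Epiblast, compared with 97.7% and 1.77% for the 293 cells of class 7, of which 177 came from 1D. Without 1D, NMP/Caudal Epiblast made up 17.0% of the neighbours in class 0 and 4.37% in class 7. The median depth was 9482 counts in class 0 and 8197 in class 7 over all cells, and 9502.5 and 9636.5 without 1D. In condition 1 without 1D, the S score averaged 0.054 in the 35 cells of class 0 and 0.046 in the 98 cells of class 7, and the G2M score 0.015 and 0.027, respectively. Both partitions were built from the same cells, and these values are a description.

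The Neural Crest cells, the other named neural type, numbered 9 and came from 1B, 1C, 1D and 1E with 2, 2, 2 and 3 cells. The second partition placed all 9 in class 7 with the Spinal Cord cells, and 63 of their 135 neighbours (46.7%) were Spinal Cord. All 9 were called in G1, unlike the Spinal Cord cells. Counting them as Spinal Cord changed the difference between conditions 1 and 5 from 20.05 to 20.6 points.

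Cell cycle phases were taken from the deposited scores. The S score and the G2M score rate a cell by its genes of DNA replication and of mitosis, and the deposited phase equals G1 when both are below 0 and otherwise the larger score, which held for 100% of the cells. Phase had been regressed out by the authors before clustering. Of the 344 Spinal Cord cells, 179 (52.0%) were called in S, 151 (43.9%) in G2M and 14 (4.07%) in G1, while the other cells had 56.9% in S, 36.4% in G2M and 6.71% in G1. Without 1D the order in S was turned, with 102 of 166 Spinal Cord cells (61.4%) and 57.1% of the other cells in S, 36.1% and 36.4% in G2M, and 2.41% and 6.57% in G1.

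The share of Spinal Cord cells in S varied widely between gastruloids. It was 48% in 1A, 86.4% in 1B, 62.0% in 1C, 43.3% in 1D and 70% in 1E, and 50.0% and 66.7% in 6D and 6E with 6 cells each. The other cells of the same gastruloids, a pool of mixed types, ranged from 50.0% to 59.4%. Single types with few cells also varied in condition 1, from 44.4% to 83.3% for PGC-like and from 36.8% to 80% for Endoderm cells. The remaining types with at least 5 cells spanned less, such as 25% to 33.3% for Somite. The PGC-like extremes rested on 9 and 6 cells and the Endoderm extremes on 19 and 5. The Spinal Cord values of condition 1 rested on 22 to 178 cells. NMP/Caudal Epiblast cells, with 37 to 76 cells in 4 gastruloids of condition 1, spanned 55.1% to 67.1%. These spreads stand at unlike cell numbers, and the part of counting error in them was not estimated. Spinal Cord cells were above the other cells of their own gastruloid in 1B, 1C, 1E and 6E and below them in 1A, 1D and 6D.

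The mean difference in the share of cells in S was 4.89 ± 14.6 percentage points (SD, n = 7 gastruloids with at least 5 Spinal Cord cells) and that in G2M was -1.74 ± 12.997 points. The S score differed by 0.0033 ± 0.012 and was higher in 5 of 7 gastruloids, and the G2M score differed by -0.00019 ± 0.011. None of these differences was called in the exact two-sided sign-flip test (p = 0.453, 0.812, 0.469 and 0.969, Benjamini-Hochberg adjusted p of 1 over 8 measures). With 7 gastruloids the smallest possible p is 0.0156.

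G1 calls were rare. No Spinal Cord cell was called in G1 in 1A, 1B, 1E and 6E, and 2 of 50, 10 of 178 and 1 of 6 were in 1C, 1D and 6D. The share in G1 was below that of the other cells in each of the 5 gastruloids of condition 1, by 4.81 ± 1.48 points on average (exact sign-flip p = 0.0625, the smallest that 5 gastruloids allow). Over all 7 gastruloids the difference was -3.15 ± 5.67 points (exact p = 0.188, adjusted p of 1), and 6D was the exception with 1 G1 cell among 6. This cell had 517 counts. The difference was -5.21 points without 6D and -5.06 with a minimum of 1000 counts. Both had n = 6 and an exact sign-flip p of 0.03125, with adjusted p of 0.083 and 0.125, and were not called. Leaving out any other gastruloid gave -3.14 to -2.47 points. The other cells were a mixed pool, in which Allantois averaged 62.7% in G1 in condition 1. Against the 3 named types the share in G1 was not lower on average. It differed by 2.33 points from NMP/Caudal Epiblast (n = 6), 2.32 from Presomitic Mesoderm (n = 6) and 1.44 from Somite (n = 7), none called. In each case 6D gave the largest difference, of 16.7, 13.2 and 11.1 points.

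**Figure D4:**
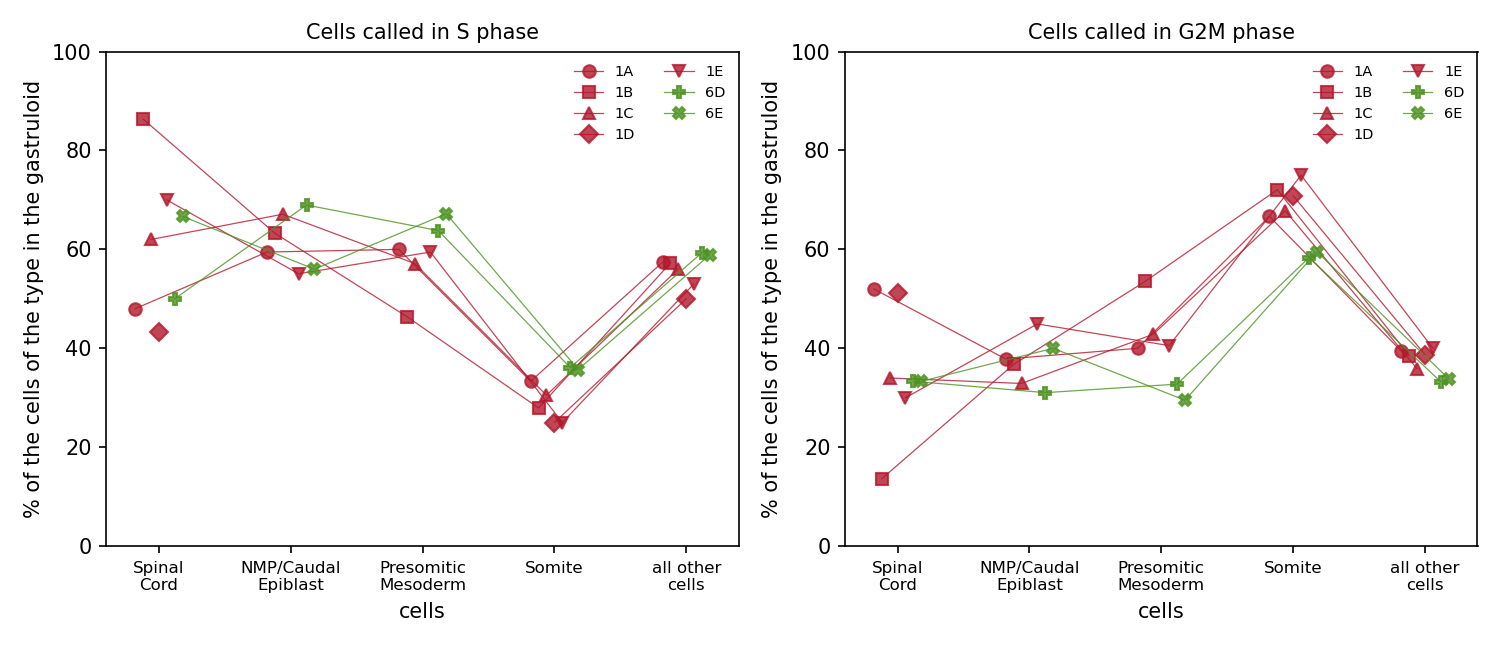
Percent of cells called in S (left) and in G2M (right) for Spinal Cord, NMP/Caudal Epiblast, Presomitic Mesoderm, Somite and all other cells, in the 7 gastruloids with at least 5 Spinal Cord cells. Each symbol is a gastruloid, lines join values of the same gastruloid, and types with under 5 cells in a gastruloid are not shown. Somite cells lie at 25% to 36.1% in S, below the Spinal Cord cells of their gastruloid in all 7.

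Among the 3 named types, Somite cells had few cells in S and many in G2M. Early Somite cells, which were not among the named types, had the opposite phases. In condition 1 they averaged 89.2% in S and 5.56% in G2M, compared with 28.4% and 70.5% for Somite cells. Spinal Cord cells lay between, with 61.9% and 36.2%, so the differences below hold for the Somite cluster and not for somitic cells in general. In S, the Somite cells had 33.3% in 1A, 27.9% in 1B, 30.5% in 1C, 25% in 1D, 25% in 1E, 36.1% in 6D and 35.7% in 6E. Spinal Cord cells exceeded them by 30.4 ± 16.7 points and were higher in 7 of 7 gastruloids. In G2M, Spinal Cord cells were lower by 31.8 ± 15.3 points, also in 7 of 7, and their G2M score was lower by 0.033 ± 0.014. For these 3 measures the exact sign-flip p was 0.0156, the smallest possible, and the adjusted p over 24 tests was 0.125, so they were not called. The S score was higher than in Somite cells by 0.013 ± 0.012, in 6 of 7 gastruloids (exact p = 0.0469, adjusted p = 0.281).

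When gastruloids with 3 or 4 Spinal Cord cells were also taken, the differences from Somite in the G2M score (-0.027) and in the share in G2M (-23.8 points) passed the threshold (n = 11 gastruloids, sign-flip test, adjusted p = 0.0469 each). When each Spinal Cord cell was set against the 3 Somite cells of its gastruloid nearest to it in total counts, the share in S differed by 36.3 ± 15.8 points and that in G2M by -36.5 ± 14.8 points, with the same direction in 7 of 7 gastruloids. At matched counts the difference from Somite was thus as large as without matching.

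From NMP/Caudal Epiblast cells, Spinal Cord cells differed in S by 2.19 ± 16.5 points (n = 6, higher in 3) and in S score by -0.00076 ± 0.015 (exact sign-flip p = 0.781 and 0.969, adjusted p = 0.969 each). From Presomitic Mesoderm, the S score differed by 0.011 ± 0.015 and was higher in 5 of 6 gastruloids (exact p = 0.156, adjusted p = 0.536). Matched on counts, it differed by 0.015 ± 0.0090 and was higher in 6 of 6. The exact sign-flip p was then 0.03125, the smallest possible, and the adjusted p was 0.15, so it was not called. After this matching the log2 counts still differed by as much as -2.73 in a gastruloid. Over all 24 tests against the 3 types without matching, none was called by the sign-flip test, and 4 had an unadjusted p under 0.05, all against Somite. Without matching, the SDs exceed the mean differences from NMP/Caudal Epiblast and Presomitic Mesoderm, and the missing calls do not show that the cells cycled alike.

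The depth of the Spinal Cord cells was close to that of the other cells of the plate in condition 1. Median counts of Spinal Cord and of other cells were 10906 and 10421.5 in 1A, 9225 and 8245 in 1B, 8630.5 and 7802.5 in 1C, 7163 and 7050.5 in 1D, and 10216.5 and 9068 in 1E. They were 10087.5 and 8270 in 6E but 686.5 and 9821 in 6D. Spinal Cord cells had the higher median in 6 of 7 gastruloids, and those of 6D were far shallower than the rest of their plate. Over pooled cells the order was turned, with 8416 counts for Spinal Cord and 9163 for other cells, and 178 of the 344 Spinal Cord cells came from 1D, which had the lowest median among these plates of condition 1.

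On the log2 scale, the median counts differed by 0.11 ± 0.066 in the 5 gastruloids of condition 1 and the median number of genes by 0.069 ± 0.030, higher in 5 of 5 (exact sign-flip p = 0.0625 each, the smallest possible, adjusted p = 0.167). With 6D and 6E the mean differences were -0.43 ± 1.51 and -0.33 ± 1.10 (n = 7, adjusted p of 1), so that 6D alone set their sign. The excess in condition 1 was over a pool of mixed types. Against both NMP/Caudal Epiblast and Presomitic Mesoderm, the log2 counts were lower in 1A and 1B and higher in 1C and 1E. These differences lay between -0.092 and 0.053 and between -0.10 and 0.058, respectively. Against Somite, the log2 counts in condition 1 were higher in all but 1C. The mitochondrial percentage of Spinal Cord cells was 4.71%, 5.45%, 4.59%, 5.29% and 4.91% in 1A to 1E, compared with 5.28%, 5.42%, 5.16%, 6.06% and 5.38% in the other cells. It was lower in 4 of 5 gastruloids of condition 1, by 0.469 ± 0.302 points on average (exact p = 0.125). It was 7.09% against 4.28% in 6D and 4.77% against 5.00% in 6E, and over all 7 the difference was 0.033 ± 1.25 points. The authors had regressed out both the counts and the mitochondrial percentage before clustering, so these measures are not independent of how the cells were grouped.

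**Figure D5:**
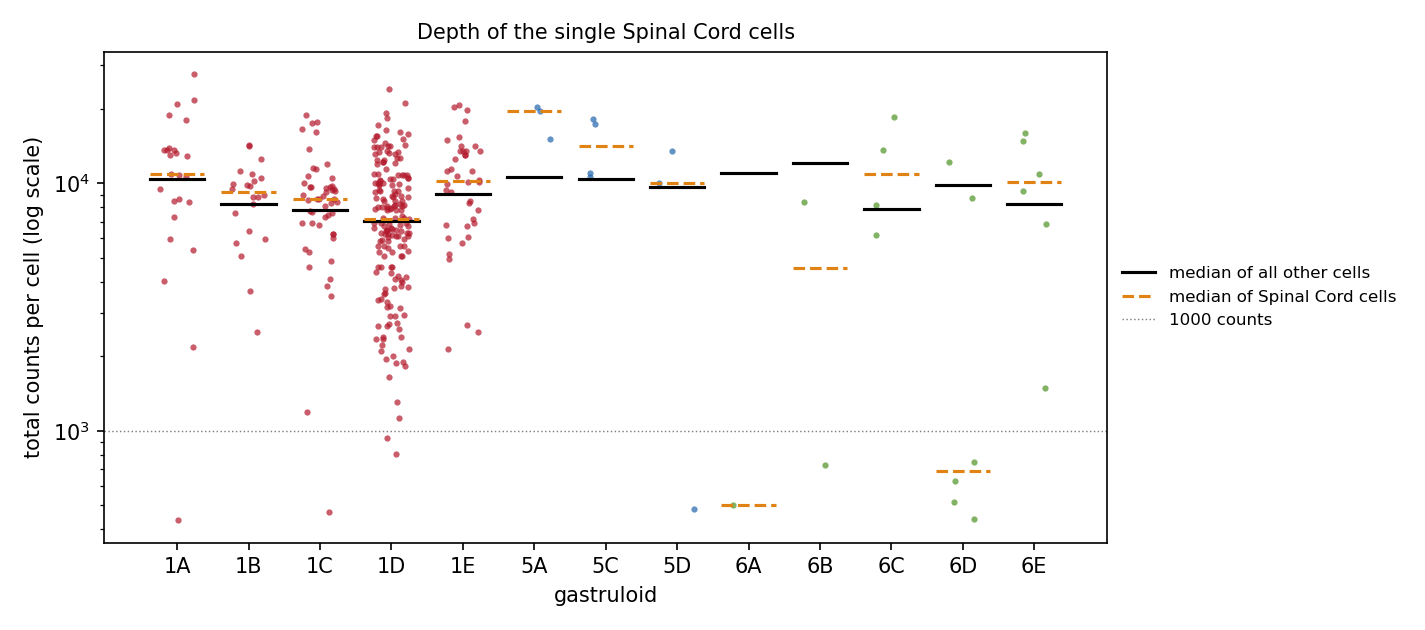
Total counts of every Spinal Cord cell (points, log axis) in the 13 gastruloids that held any, with the median of the Spinal Cord cells (dashed) and of all other cells (solid line) of the same gastruloid. In 6D, 4 of 6 cells lie under 1000 counts, and in 1E none of 40 does.

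Among the 29 Spinal Cord cells of conditions 5 and 6, 7 had under 1000 counts (24.1%), compared with 3.22% of the other cells of these conditions (99 of 3079). In condition 1, 4 of 315 Spinal Cord cells were this shallow (1.27%) and 2.72% of the other cells were. The 7 cells were the single Spinal Cord cell of 6A with 502 counts, 1 of 3 in 5D with 484, 1 of 2 in 6B with 729, and 4 of 6 in 6D with 441, 517, 627 and 746 counts. Those of 5D, 6A and 6B were the 3 that lay among mesoderm cells on the UMAP, whereas the 4 of 6D had only Spinal Cord neighbours. Over all conditions 11 Spinal Cord cells had under 1000 counts, which was 3.20% against 3.07% of the other cells.

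Shallow cells were thus a larger part of the Spinal Cord cells of conditions 5 and 6 than of condition 1, which was not tested. With a minimum of 1000 counts per cell, the share still differed by 20.3 points between conditions 1 and 5 and by 20.1 between conditions 1 and 6 (exact rank-sum p = 0.00794, 0.0238 after correction). The difference between conditions 5 and 6 fell to 0.17 points (exact p = 0.833). The part of depth in the naming of single cells was not tested.

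Between conditions, the Spinal Cord cells themselves could hardly be compared, because only 7 gastruloids held at least 5 of them and only 6D and 6E came from outside condition 1. The mean S score was 0.044 ± 0.0098 (n = 5) in condition 1 and 0.032 ± 0.023 (n = 2) in condition 6, and the G2M score was 0.026 ± 0.011 and 0.023 ± 0.015. Cells in S made up 61.9% ± 17.4 and 58.3% ± 11.8. For all 8 measures the exact two-sided rank-sum test gave an unadjusted p of 0.571 or more. With 5 against 2 gastruloids no p under 0.0952 is possible, and none of the 8 measures had an unadjusted p under 0.05.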

How the data were processed

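Single cells of 15 gastruloids were sorted into plates by FACS, with DAPI to assess viability, and profiled with CEL-seq2. The submitters' processing notes name cutadapt 4.1, STAR 2.5.3a, SAMtools 1.15.1 and the build GRCm38. In Scanpy, the authors removed gastruloid cells with under 500 reads, under 100 genes or over 20% mitochondrial reads, dropped Malat1 and all mitochondrial and ribosomal reads, normalised to 500 transcripts per cell, regressed out counts, mitochondrial percentage and cell cycle phase, and clustered with Leiden at resolution 0.5. The deposited total count and gene number per cell are whole numbers without normalisation. The mitochondrial value deposited by the authors is a fraction and was multiplied to percent. The deposited S score and G2M score have no unit. The deposited UMAP coordinates and cluster numbers were used as given, and type names follow the study, matched to the deposited names by equal cell numbers. Doublet removal is not given in the sources used here and no doublet caller could be run on these values.

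Values were computed per gastruloid in Python 3.11.15 with numpy 2.4.6, pandas 2.3.3 and scipy 1.17.1. For shares and balances, each of the 3 pairs of conditions was tested by an exact rank-sum (Wilcoxon) test, two-sided, and called when p times 3 was under 0.05. Cell measures were compared within gastruloids with at least 5 Spinal Cord cells by an exact two-sided sign-flip test, with Benjamini-Hochberg adjustment over 8 measures, or over 24 tests for 3 named types, called at an adjusted p under 0.05. The tests were checked on simulated data. Without values per gene, cells could not be thinned to equal depth, and a match on total counts was used as an alternative. The members, types, measures and tests were chosen with earlier results of these data known. Alternatives were minimum counts of 1000, limits of 10% and 1% on mitochondrial reads, other denominators, a centred log-ratio with pseudocount 0.5, other minimum cell numbers, means, a permutation test of means, the replicate number as a block, other neighbour numbers and leaving out each gastruloid. Leaving out cells without a majority of Spinal Cord neighbours, leaving out condition 6, and pooled descriptions without 1D were chosen after seeing the data. Cells of mESCs and columns of the deposited table that repeat coordinates or names were not used.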

Additional observations from a re-analysis of the deposited data

Results flagged for a closer look

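In condition 1, gastruloid 1D stood apart in both the share and the balance of Spinal Cord cells. Its share was 58.9%, while the other 4 gastruloids had 7.21% to 16.8%, and the gap to the nearest of them took 0.815 of the range of the group, above the limit of 0.71 for 5 samples. Of its Spinal Cord and NMP/Caudal Epiblast cells together, 98.9% were Spinal Cord, against 31.0% to 40.3% in the other 4 (gap 0.862 of the range). The 2 values share the same 178 cells. In all, 22 groups of values were examined in this way, of which chance marks about 1 in 20, and no measure of the Spinal Cord cells themselves (scores, phases, counts, genes and mitochondrial percentage in condition 1) was marked. The part of the plate, the culture or the single gastruloid in these values was not tested.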

How the results depend on the processing

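The larger share in condition 1 kept its direction and its call against conditions 5 and 6 under the limits on counts and mitochondrial reads, other denominators, the log-ratio, the permutation test of means, addition of Neural Crest cells and pooling of conditions 5 and 6. Leaving out each gastruloid in turn gave 10.5 to 23.4 points against condition 5 and 10.0 to 22.9 against condition 6, and for the balance 31.6 to 48.6 and 24.9 to 41.9. The lowest values were without 1D. With the replicate number as a block, the same differences of 20.05 and 19.5 points for the share and 44.0 and 37.3 for the balance were no longer called (exact sign-flip p = 0.0625, the smallest that 5 pairs allow, 0.188 after correction). The labels tie the numbers to no shared culture or day, and the cell type deviations of same-numbered gastruloids correlated between -0.505 and 0.340, with 7 of 15 pairs over 0.1 and 2 of 15 best matched to their own number.

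No measure within gastruloids was called under any alternative, and several uncalled mean differences changed sign. In condition 1 only, which equals a minimum of 10 cells or leaving out condition 6, log2 counts, log2 genes and the mitochondrial percentage differed by 0.11, 0.069 and -0.469, with a minimum of 1000 counts by 0.14, 0.077 and -0.444, and matched on counts by 0.035, 0.025 and -0.793. Without single gastruloids these 3 ranged from -0.55 to 0.14, from -0.41 to 0.083 and from -0.429 to 0.167, the G2M score from -0.0029 to 0.0023 and the share in G2M from -4.13 to 2.11 points. With a minimum of 3 cells, the G2M score differed by 0.0058, the share in S by -4.50 points, that in G2M by 6.40 points and the mitochondrial percentage by -0.035. With other types weighted equally, the G2M score differed by 0.0038 and the share in G2M by 0.264 points. Against NMP/Caudal Epiblast, the S score differed by 0.0055 in condition 1 only and with a minimum of 10 cells, by 0.0046 with a minimum of 1000 counts and by 0.00029 matched on counts, ranging from -0.0038 to 0.0051 without single gastruloids. The share in S differed by -11.0 points with a minimum of 3 cells and by -2.60 matched on counts, ranging from -1.99 to 6.43 without single gastruloids. Of the 24 tests against named types, 2 were called with a minimum of 3 cells, against 0 with 5. Spinal Cord neighbours made up 94.2%, and 88.1% without 1D. The causes were not tested. The comparison of cell measures between conditions could not be made with a minimum of 1000 counts or without 6D or 6E, which leave 1 gastruloid outside condition 1. Each gastruloid of conditions 5 and 6 held 0 to 6 Spinal Cord cells, which limits the precision of their shares and cell measures.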
